A study of Triticum aestivum with 10 samples.

Results

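Gene expression in early wheat grain was compared between 200 and 100 degree days (DD) after pollination, the sum of daily mean temperatures by which grain age is counted. The comparison used 3 of the 10 arrays of the series, 2 at 200 DD and 1 at 100 DD. All grain came from hexaploid wheat (Triticum aestivum) of the cultivar Récital. The plants were vernalized and then grown in a greenhouse at a set temperature, with no other treatment named. Endosperm and embryo were collected together. The 200 DD arrays carry labels of 185 DD (replicate 1) and 200 DD (replicate 2), and the 100 DD array (replicate 1) a label of 130 DD. The methods name 2 harvests, and the replicate numbers were taken to stand for them, so that harvest and labelled degree days differ together between the 200 DD arrays. The second array labelled 100 DD was left out, because its profile matched grain of 500 DD. Across the probe sets tested, r was 0.988 and 0.974 between that array and the 500 DD arrays (replicates 2 and 1) and 0.646 between it and the other 100 DD array. Such correlations run across probe sets, and these are no replicates.

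Endosperm of wheat begins as a sheet of free nuclei that forms walls and divides into cells, and only then loads those cells with starch granules and storage proteins. The gluten proteins, gliadins and glutenins, are made on the rough endoplasmic reticulum of the starchy endosperm, together with amylase and protease inhibitors and thionins that defend the seed. The maternal pericarp around it is green at first and holds starch of its own, while the embryo makes its dehydration proteins late.

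Values are log2 signals after GCRMA, a normalization that takes the unspecific binding of each probe into account, and a value under 4 was read as background. Of 61179 probe sets other than Affymetrix controls, 24631 reached 4 on at least 1 of the 3 arrays. A change was called where both 200 DD arrays lay on the same side of the 100 DD array and the adjusted p from limma (Benjamini-Hochberg over all 24631) was under 0.05. The spread came from the 200, 250, 300 and 500 DD stages, so the lone 100 DD array was assumed to vary like the others. The p-values measure only the spread between these arrays. In such whole-grain RNA, fewer cells of a type and less RNA per cell cannot be told apart.

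At 200 DD, 1408 probe sets were called higher (5.72% of those tested) and 2191 were called lower (8.90%). Both 200 DD arrays lay above 100 DD in 8417 probe sets (34.2%) and below it in 11336 (46.0%), and lay on both sides of it in 4878 (19.8%). The median difference, 200 minus 100 DD, was -0.10 over all probe sets tested, and the median distance between the 200 DD arrays was 0.343. More probe sets fell than rose, but the changes upward reached farther. The surplus of falls depends on the threshold, and with Bonferroni adjustment 136 were higher and 31 lower. With a value of 4 required on at least 2 of the 9 arrays, 1243 were called higher and 1218 lower, but this filter removes every probe set at 4 or more at 100 DD alone, since only 1 of the 9 arrays is of that age, and keeps rises seen on 2 of the other arrays. Without 200 DD replicate 2 the counts were 865 higher and 1063 lower. A limma fit of the 3 arrays alone, with 1 residual degree of freedom, called 0 in either direction, with 5219 probe sets at an unadjusted p under 0.05, so the calls rest on a spread that includes the later stages.

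**Figure D1:**
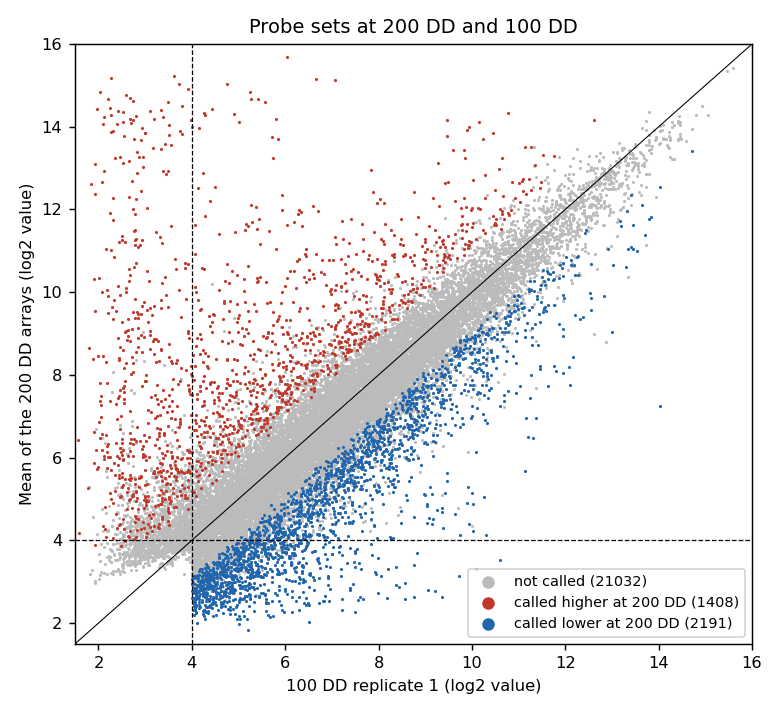
Mean log2 value of the 200 DD arrays (vertical axis) against the log2 value of 100 DD replicate 1 (horizontal axis) for each of the 24631 probe sets tested. Dashed lines mark the background limit of 4, the solid line marks equal values, and the 1408 probe sets called higher reach much farther from it than the 2191 called lower.

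Graded changes, with a value of at least 4 on all 3 arrays, were possible for 19865 probe sets, of which 884 were called higher and 1228 lower. Their median differences were 2.09 for those called higher and -1.63 for those called lower. Differences of at least 2 on the log2 scale were found in 467 probe sets called higher and 353 called lower, those of at least 4 in 134 and 17, and those of at least 6 in 41 and 1. Among these calls the small changes were mostly downward and the large ones mostly upward. Of the 24631, 1089 (4.42%) were switched on, at least 4 on both 200 DD arrays and under 4 at 100 DD, and 1454 (5.90%) were switched off, under 4 on both 200 DD arrays and at least 4 at 100 DD. In the remaining 2223 probe sets the 200 DD arrays lay on different sides of 4. The surplus of probe sets switched off depends on the normalization. After quantile normalization 1239 were switched on and 1275 off, and with the array medians made equal 1108 and 1420. With the limit at 3 they were 922 and 1260, and with the limit at 5 they were 1140 and 1457.

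Many switches were close to the limit. The 100 DD value was within 0.5 under the limit in 466 of those switched on and within 0.5 over it in 686 of those switched off. The probe set just under the limit at 100 DD, counted as switched on, had 4.32 and 4.20 at 200 DD and 3.998 at 100 DD. The one just over it, counted as graded, had 4.20 and 4.29 at 200 DD and 4.001 at 100 DD. Strong signals were mostly among the probe sets switched on. Both 200 DD arrays were at 8 or more in 174 of them, at 10 or more in 96, at 12 or more in 60 and at 14 or more in 19. Of the probe sets switched off, 12 had been at 8 or more at 100 DD, 1 at 10 or more and 0 at 12 or more. With 200 DD replicate 1 left out, so that 1 array decides, 1845 were switched on and 2184 switched off. By limma, 514 of the probe sets switched on and 803 of those switched off were called, which is a description, since both classes were chosen for the difference between the same arrays.

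Only a small part of the array carries a gene name in its annotation. Of the probe sets tested, 889 had 1 gene symbol, among them 141 of 87 genes with a name other than a locus number, and 23742 had no gene. Among the 87 named genes, 27 had a probe set called higher (38 of the 141 probe sets). A lower call was found in 7 of them (9 of the 141). Of all probe sets tested, 5.72% were called higher and 8.90% lower. The 38 included 14 gluten, 11 inhibitor and 6 thionin probe sets. In these families 15, 8 and 3 of the tested probe sets, in that order, were switched on. Such probe sets entered the test only through the older grain and had to differ, so the count of 38 is a description. Many probe sets of the gluten, inhibitor, thionin, histone and tubulin families end in _a_at, _s_at or _x_at, which marks probes shared by several transcripts, so that the copies of such a family are not resolved.

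Gluten genes stood far above the background limit at 200 DD and, with 1 exception among their probe sets, under it at 100 DD. The alpha/beta-gliadin gene gli-2 (LOC543210) had 14.44 and 14.92 on the 200 DD arrays, against 2.20 at 100 DD (adjusted p = 5.54e-06, limma). A second gli-2 gene (LOC543211) had 14.26 and 14.61 at 200 DD and 1.98 at 100 DD. The gamma-gliadin gene GAG56D (LOC543214) had 13.83 and 14.39 at 200 DD, against 2.53 at 100 DD. Each of these genes was at background in the younger grain and strongly expressed in both older samples. Because a background value has no true size, the rise is given as a distance from the limit: the 200 DD mean lay 10.68 above 4 for gli-2 (LOC543210), 10.44 for gli-2 (LOC543211) and 10.11 for GAG56D.

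The avenin-like gene avnla (LOC780582) had 13.62 and 14.00 at 200 DD, against 3.52 at 100 DD. The low-molecular-weight glutenin gene LMW-GS (LOC543213), whose product joins the glutenin polymer, had 12.08 and 13.63 at 200 DD and 3.45 at 100 DD. The other gli-2 genes were also at background in the younger grain. LOC543212 had 12.84 and 14.50 at 200 DD, against 2.91 at 100 DD, and LOC543385 had 10.68 and 11.61 at 200 DD, against 2.78 at 100 DD. Of the 17 gluten probe sets on the array, 16 were tested, and 15 of these entered only through their 200 DD values, so the 14 called higher are a description of genes that had to differ. Between the 200 DD arrays all 16 were higher on replicate 2, by a median of 0.48. At 250, 300 and 500 DD replicate 2 was the lower array for 7, 9 and 3 of them, with median differences between -0.01 and 0.12.

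The probe sets of a gene did not always move together. ALP (LOC100125692), an avenin-like storage protein gene, had 14.21 and 14.38 at 200 DD, against 2.27 at 100 DD, on 1 of its probe sets. A further probe set of ALP had 10.49 and 10.80 at 200 DD and 10.48 at 100 DD, a difference of 0.17 (standard error 0.24, adjusted p = 0.71, limma). It was the only gluten probe set at 4 or more in the younger grain. A weak probe set of GAG56D, at 4.16 and 4.67 at 200 DD and 2.98 at 100 DD, was switched on but not called (adjusted p = 0.119, limma).

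**Figure D2:**
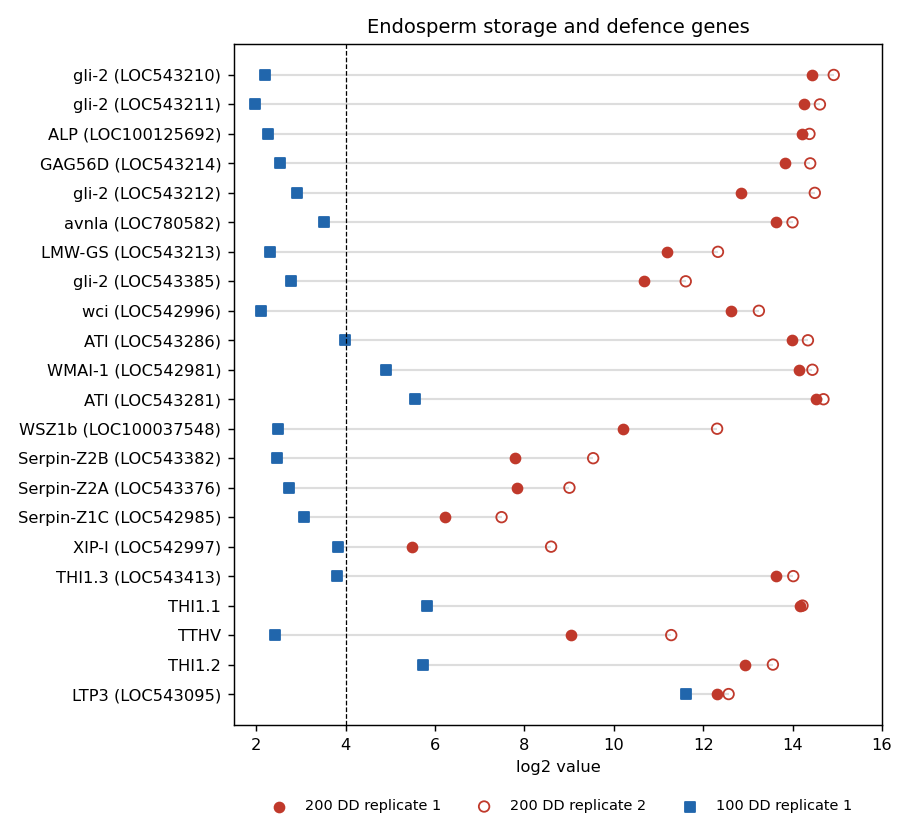
Log2 values of gluten, inhibitor, thionin and lipid transfer protein genes, 1 probe set per gene with the largest difference. Filled circles are 200 DD replicate 1, open circles 200 DD replicate 2 and squares 100 DD replicate 1, and the dashed line is the background limit of 4. All genes but LTP3 lie under 6 at 100 DD, and both 200 DD arrays of every gene lie to the right of the square.

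Alpha-amylase inhibitors were already above background at 100 DD, so that their rises can be sized. The alpha-amylase/trypsin inhibitor gene ATI (LOC543286) had 14.81 and 14.86 at 200 DD, against 5.25 at 100 DD. The log2 difference was 9.59 (standard error 0.21; adjusted p = 5.54e-06, limma). The second ATI gene (LOC543281) had 14.52 and 14.69 at 200 DD and 5.56 at 100 DD, a difference of 9.04 (standard error 0.22). The monomeric alpha-amylase inhibitor gene WMAI-1 (LOC542981) had 14.15 and 14.44 at 200 DD, against 4.91 at 100 DD, a difference of 9.39 (standard error 0.24). These graded rises were 772-fold, 528-fold and 671-fold, and the replicates differed by under 0.5. A further probe set of ATI (LOC543286) had 13.98 and 14.34 at 200 DD and 3.99, just under the limit, at 100 DD, so the same gene also counted as switched on. The chymotrypsin inhibitor gene wci (LOC542996) had 12.62 and 13.24 at 200 DD and 2.11 at 100 DD.

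Serpins, which trap proteases by a loop that is cut and inserted, were switched on and differed more between the 200 DD arrays than the amylase inhibitors did. WSZ1b (LOC100037548) had 10.21 and 12.31 at 200 DD, against 2.49 at 100 DD. Serpin-Z2B (LOC543382) had 7.79 and 9.54 at 200 DD, against 2.46 at 100 DD. Serpin-Z1C (LOC542985) had 6.21 and 7.49 at 200 DD and 3.06 at 100 DD (adjusted p = 0.0167, limma). Replicate 2 was higher by more than 1 for each, and Serpin-Z2A (LOC543376), with 7.84 and 9.01 at 200 DD and 2.73 at 100 DD, behaved likewise. The inhibitor of microbial xylanases XIP-I (LOC542997) differed most between the 200 DD arrays among the inhibitors. One of its probe sets had 4.83 and 9.14 at 200 DD, against 4.56 at 100 DD, and was not called (adjusted p = 0.376, limma). Its other probe set, switched on, had 5.48 and 8.60 at 200 DD, against 3.83 at 100 DD, and was not called either (adjusted p = 0.137, limma). Later the first stood at 10.51 and 12.05 at 250 DD, 13.42 and 13.71 at 300 DD and 14.96 and 14.54 at 500 DD, with a smaller distance between the arrays of each later stage than at 200 DD. All 13 inhibitor probe sets were tested, and 11 were called higher, where 5.72% of all probe sets tested were. As 8 of the 13 entered only through their 200 DD values and had to differ, this count is a description.

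Thionins are small, cysteine-rich antimicrobial peptides of the endosperm. THI1.1 had 14.17 and 14.22 at 200 DD, against 5.81 at 100 DD, a difference of 8.38 (standard error 0.24, adjusted p = 6.41e-06, limma). THI1.2 had 12.93 and 13.56 at 200 DD, against 5.73 at 100 DD, a difference of 7.51 (standard error 0.33). THI1.3 (LOC543413) had 13.63 and 14.01 at 200 DD and 3.80 at 100 DD. THI1.1 and THI1.2 were thus above background at 100 DD already, while THI1.3 was just under the limit there. The type V thionin gene TTHV had 9.04 and 11.28 at 200 DD, against 2.42 at 100 DD, and stood at 13.31 and 13.38 by 300 DD. The lipid transfer protein gene LTP3 (LOC543095) was far above background at both ages, with 13.27 and 13.51 at 200 DD and 13.02 at 100 DD on 1 probe set (difference 0.37, standard error 0.40, adjusted p = 0.617, limma). Its probe set with the largest difference had 12.30 and 12.57 at 200 DD and 11.62 at 100 DD (difference 0.81, standard error 0.28, adjusted p = 0.113, limma). Neither was called.

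The 3 genes of starch synthesis tested were expressed at both ages, and 2 of them were called higher, where 5.72% of all probe sets tested were. AGP-S (LOC543299) encodes the smaller of the subunits of ADP-glucose pyrophosphorylase, the enzyme that supplies starch synthases with activated glucose. It had 14.37 and 14.29 at 200 DD, against 10.78 at 100 DD. The difference of 3.55 (standard error 0.25, adjusted p = 0.000443, limma) is an 11.7-fold rise. AGP-S then had 14.36 and 14.28 at 250 DD, 14.32 and 14.06 at 300 DD and 13.09 and 13.36 at 500 DD, below the 200 DD values on both of the last arrays. GBSS (LOC543395), the granule-bound starch synthase that makes amylose, had 11.59 and 12.46 at 200 DD and 9.77 at 100 DD, a difference of 2.25 (standard error 0.37, adjusted p = 0.0115, limma). AGA.1 (LOC543278), a gene of the large subunit of ADP-glucose pyrophosphorylase, had 8.08 and 8.19 at 200 DD and 6.96 at 100 DD but missed the threshold (difference 1.17, standard error 0.35, adjusted p = 0.0748, limma). Both 200 DD arrays of all 3 genes lay above the 100 DD array, as they did in 34.2% of all probe sets tested. The distance between the 200 DD arrays was smaller than the rise in each of the 3 genes.

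A gene of fructan breakdown fell, and a further one was not called. The fructan 6-exohydrolase gene 6-FEH (LOC780575), whose product removes fructose from stored fructan, had 4.84 and 5.49 at 200 DD, against 8.32 at 100 DD, a difference of -3.15 (standard error 0.47, adjusted p = 0.00805, limma). A further probe set of 6-FEH had 6.18 and 5.78 at 200 DD and 8.73 at 100 DD, a difference of -2.75 (standard error 0.28, adjusted p = 0.00217). Both placed the older grain well below the younger one. The fall did not last on the first of these probe sets, which stood at 5.73 and 6.55 at 250 DD, 7.22 and 7.89 at 300 DD and 8.48 and 8.41 at 500 DD, close to the 100 DD value. The other 6-FEH probe set was at 6.62 and 6.34 at 500 DD. The fructan 1-exohydrolase gene 1-FEH (LOC543441) lay above 100 DD, with 8.00 and 8.22 at 200 DD and 7.32 at 100 DD (adjusted p = 0.189, limma).

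GLU1A (LOC780595) had 2.61 and 2.60 at 200 DD, against 8.18 at 100 DD (adjusted p = 2.88e-05, limma). The 100 DD value lay 4.18 above the limit, and GLU1A remained between 2.61 and 2.67 on every array of 250, 300 and 500 DD. It encodes a beta-glucosidase that releases benzoxazinone defence compounds from their glucosides, and it came into the list of starch breakdown through the word glucosidase, not through a role in starch. The beta-amylase gene BMY1 (LOC543318), which cuts maltose from starch, had 11.77 and 10.53 at 200 DD and 13.73 at 100 DD. Both arrays lay below 100 DD, but the replicates differed by more than 1, and the difference of -2.58 (standard error 1.06) was not called (adjusted p = 0.164, limma).

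**Figure D3:**
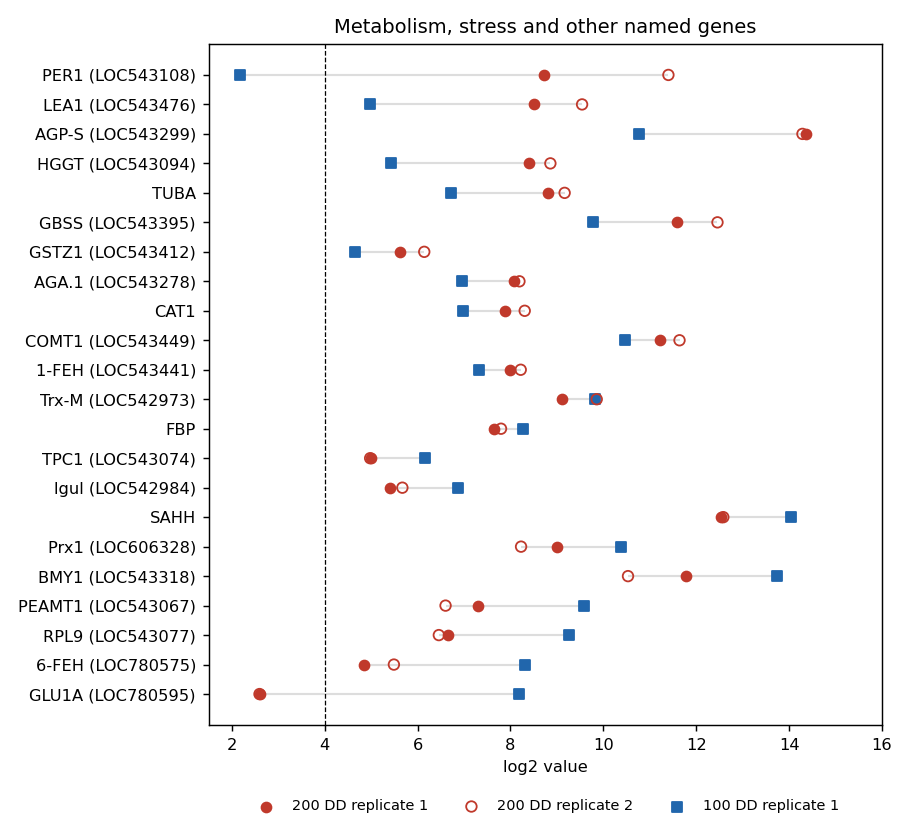
Log2 values of genes of starch, fructan, redox and methyl metabolism and of other named genes, ordered by the difference between 200 and 100 DD. Filled circles are 200 DD replicate 1, open circles 200 DD replicate 2 and squares 100 DD replicate 1, and the dashed line is the background limit of 4. GLU1A lies under the limit at 200 DD and at 8.18 at 100 DD, and PER1 the other way round.

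Further named genes that rose include ones of vitamin, stress and redox metabolism. The defence and redox genes did not rise as a list. Of their 11 probe sets tested, 2 were called higher and 2 lower, where 5.72% and 8.90% of all probe sets tested were. On both arrays 4 of them were higher and 6 lower, where 34.2% and 46.0% of all were, and their median difference was -0.66. HGGT (LOC543094), homogentisate geranylgeranyl transferase, which makes the tocotrienols of cereal grain, had 8.40 and 8.86 at 200 DD, against 5.42 at 100 DD, a difference of 3.21 (standard error 0.31, adjusted p = 0.00174, limma). LEA1 (LOC543476), of the late embryogenesis abundant proteins, had 8.52 and 9.54 at 200 DD and 4.98 at 100 DD, a difference of 4.04 (standard error 0.52, adjusted p = 0.0047, limma). It went on to 12.00 and 12.36 at 500 DD. PER1 (LOC543108), a seed peroxiredoxin known from aleurone and embryo, had 8.73 and 11.40 at 200 DD and 2.18 at 100 DD (adjusted p = 0.00394, limma). A further PER1 probe set was under 4 on all 3 arrays. The markers of the late embryo were absent at both ages: every probe set of Em, EM, Rab15 and WGA2 was under 4 on all 3 arrays, as were 11 of the 13 probe sets of the embryo and aleurone list. The catalase gene CAT1 had 7.88 and 8.31 at 200 DD and 6.97 at 100 DD, and its call rests on a narrow margin (difference 1.12, standard error 0.29, adjusted p = 0.0474, limma). Its adjusted p was 0.0649 to 0.142 when any one of the arrays of the other stages or 200 DD replicate 2 was left out.

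Besides 6-FEH and GLU1A, the named genes that fell include a ribosomal protein gene, genes of methyl transfer and an ion channel gene. Of the 8 translation probe sets tested, 1 was called lower, and their median difference was 0.02. Of the 5 transport probe sets tested, 1 was called lower, where 8.90% of all probe sets tested were. RPL9 (LOC543077), a protein of the large ribosomal subunit, had 6.66 and 6.46 at 200 DD, against 9.25 at 100 DD, a difference of -2.69 (standard error 0.33, adjusted p = 0.00398, limma). It fell further, to 3.97 and 4.22 at 500 DD. PEAMT1 (LOC543067), the phosphoethanolamine methyltransferase on the route to choline, had 7.30 and 6.60 at 200 DD and 9.57 at 100 DD, a difference of -2.62 (standard error 0.59, adjusted p = 0.032, limma). SAHH, adenosylhomocysteinase, which clears the by-product of methyl transfer, had 12.52 and 12.58 at 200 DD and 14.03 at 100 DD, a difference of -1.48 (standard error 0.34, adjusted p = 0.0344, limma). A further SAHH probe set differed by -1.27 (adjusted p = 0.0809, limma). PEAMT1 was not called without 200 DD replicate 2 (adjusted p = 0.121) or without either 300 DD array (adjusted p = 0.0613). The methyltransferase gene COMT1 (LOC543449), of lignin synthesis, lay on the other side, with 11.22 and 11.64 at 200 DD and 10.47 at 100 DD (difference 0.96, adjusted p = 0.0612, limma). These methyl-transfer genes were put side by side after their values were seen.

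The glyoxalase gene lgul (LOC542984) had 5.40 and 5.67 at 200 DD and 6.88 at 100 DD, a difference of -1.34 (standard error 0.29, adjusted p = 0.0276, limma). A further lgul probe set differed by -1.21 (adjusted p = 0.049). The calls of lgul were near the threshold, with an adjusted p of 0.0717 without 200 DD replicate 1 and 0.0617 without replicate 2 for the first probe set. The cation channel gene TPC1 (LOC543074) had 5.01 and 4.98 at 200 DD and 6.16 at 100 DD (difference -1.17, standard error 0.29, adjusted p = 0.0414, limma), and was not called without either 200 DD, 250 DD or 300 DD array (adjusted p = 0.0638 to 0.122). The peroxidase Prx1 (LOC606328) was lower on both arrays at all 3 of its probe sets tested, for example 8.99 and 8.23 at 200 DD and 10.37 at 100 DD, but none was called.

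Histone genes, which are transcribed mostly while DNA replicates, were above background at both ages, and none of their probe sets was called. H2A-9 (LOC732714) had 11.45 and 10.27 at 200 DD, against 12.21 at 100 DD (difference -1.35, standard error 0.50, adjusted p = 0.129, limma). H2A-2 (LOC732712) had 7.91 and 6.22 at 200 DD and 8.64 at 100 DD (difference -1.57, standard error 0.72, adjusted p = 0.206, limma). The wcH2B-6 gene (LOC543183) had 11.72 and 10.42 at 200 DD and 11.87 at 100 DD. In each, both 200 DD arrays lay below 100 DD, and replicate 2 lay farther below it than replicate 1. The 18 histone probe sets belong to only 5 genes. Replicate 2 of 200 DD lay below 100 DD in 18 of them, with a median difference of -1.42. Replicate 1 lay below it in 12, with a median difference of -0.19. Both arrays thus lay below it in 12 of 18, beside 46.0% of all probe sets tested. The median difference of the 18 was -0.82, beside -0.10 over all probe sets tested. Replicate 2 was below replicate 1 in 17 of 18 at 200 DD, 9 of 18 at 250 DD, 10 of 18 at 300 DD and 16 of 18 at 500 DD. Among all probe sets below 100 DD on both 200 DD arrays, replicate 2 was the lower array in 66.0%. With 1 of the 200 DD arrays left out, 1 array stands against 1 array. On replicate 2 alone the differences were -2.41 for H2A-2, -1.52 for H2A-3, -1.94 for H2A-9, -1.45 for wcH2B-6 and -2.50 for wcH2B-8. On replicate 1 alone they were -0.72, -0.78, -0.75, -0.14 and -0.83 in the same order. Each value is from the probe set of its gene with the largest difference.

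All tubulin probe sets but 1 of TUBA lay below 100 DD on both 200 DD arrays, and none of those below was called in the main fit. The differences were -0.55 for tubb2 (LOC543258), -0.79 for tubb3 (LOC543473) and -0.35 for Tubb4 (LOC543260). The beta-tubulin gene tubb1 (LOC543257) had 12.12 and 11.63 at 200 DD and 12.93 at 100 DD (difference -1.05, standard error 0.31, adjusted p = 0.0716, limma), and was called after quantile normalization of the arrays (adjusted p = 0.0432). Tubb5 (LOC543261) had 9.76 and 9.39 at 200 DD and 10.99 at 100 DD (difference -1.41, standard error 0.43, adjusted p = 0.0777, limma). The alpha-tubulin gene TUBA, by contrast, had 8.80 and 9.17 at 200 DD, against 6.72 at 100 DD, on 1 probe set (difference 2.26, standard error 0.30, adjusted p = 0.00522, limma), and 13.37 and 13.36 at 200 DD, against 13.84 at 100 DD, on its other one. Of the 13 probe sets of cytoskeleton and cell wall, 1 was called higher and 0 lower at an adjusted p under 0.05, and 10 were lower on both arrays, where 5.72% of all probe sets tested were called higher, 8.90% lower and 46.0% were lower on both arrays. XTH, a xyloglucan-remodelling enzyme of the wall, had 6.65 and 6.90 at 200 DD and 8.33 at 100 DD (difference -1.55, adjusted p = 0.254, limma).

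**Figure D4:**
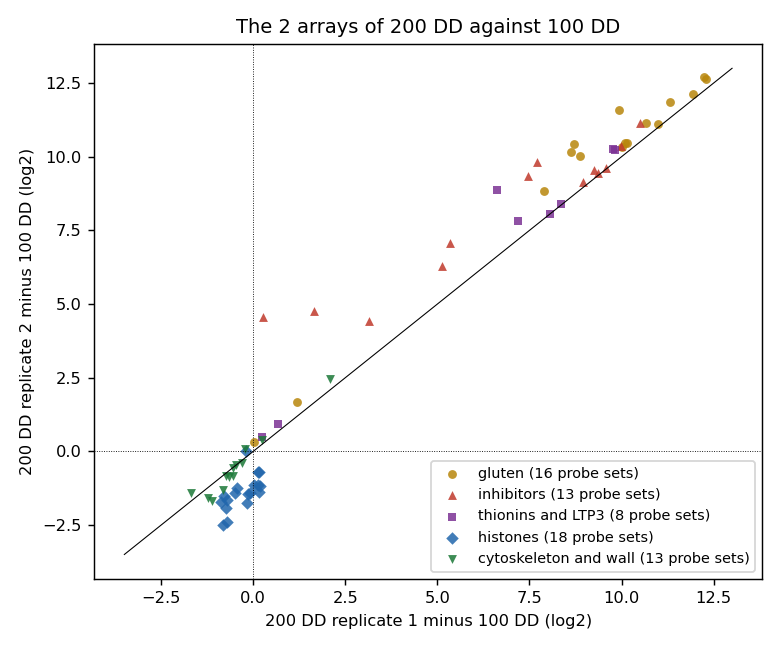
Difference from 100 DD on 200 DD replicate 2 (vertical axis, log2) against that on 200 DD replicate 1 (horizontal axis, log2), 1 point per probe set tested of 5 gene lists. The line marks equal differences. Gluten, inhibitor and thionin probe sets lie above the line, and 17 of the 18 histone probe sets lie below it.

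No photosynthesis gene was called. Of their 31 probe sets, 24 were under 4 on all 3 arrays, and none of the other 7 was called. OEE1 (LOC543291), which helps photosystem II to split water, had 10.85 and 10.62 at 200 DD and 11.17 at 100 DD (difference -0.44, standard error 0.41, adjusted p = 0.552, limma). The large-subunit gene of Rubisco, rbcl (LOC100049018), had 15.45 and 15.38 at 200 DD and 15.60 at 100 DD on 1 of its probe sets. The median difference of the 7 was -0.12, against -0.10 over all probe sets tested. The initiation and elongation factor genes of translation stayed within 0.42 of their 100 DD level on average, with eIF4E (LOC543485) at 10.64 and 10.30 at 200 DD and 10.04 at 100 DD, and were not called. The 2 transcription factor probe sets tested were not called either, and WZF1 (LOC543182), a zinc finger gene, had 4.13 and 9.37 at 200 DD and 6.24 at 100 DD, with the 200 DD arrays on both sides.

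The rule for named genes also brought up loci with no name in the tables used, whose values are given as ranges. They made up 5 of the 10 genes with the largest graded rise, at 9.47 to 14.52 at 200 DD and 4.27 to 6.71 at 100 DD, and 7 of the 10 with the largest graded fall, at 4.23 to 11.57 at 200 DD and 7.04 to 13.54 at 100 DD. They were 3 of the 10 strongest switched on, at 13.07 to 14.62 at 200 DD and 2.54 to 3.33 at 100 DD. Of the 10 strongest switched off they were 9, at 2.45 to 3.85 at 200 DD and 6.08 to 7.38 at 100 DD. The probe sets with no gene in the annotation held large changes too. Ta.23142.4.S1_s_at had 15.14 and 15.23 at 200 DD, against 2.27 at 100 DD, and Ta.27778.4.S1_x_at had 14.75 and 14.91 at 200 DD, against 2.03 at 100 DD. Among the falls, Ta.28847.1.S1_a_at had 3.49 and 3.12 at 200 DD and 10.09 at 100 DD. Ta.4898.1.A1_s_at had 4.50 and 2.54 at 200 DD and 10.61 at 100 DD, with only 1 of the 200 DD arrays under the limit.

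The older grain of replicate 2 was mostly the farther from 100 DD. Among graded changes, 200 DD replicate 2 was farther from 100 DD than replicate 1 in 622 of 884 probe sets called higher (70.4%) and in 819 of 1228 called lower (66.7%). The 200 DD arrays were nevertheless within 1 of each other in 814 of the 884 and 1178 of the 1228. Across the probe sets tested, r between 200 DD and 100 DD was 0.839 for replicate 1 of 200 DD and 0.773 for replicate 2, and it was 0.950 between the 200 DD arrays. Replicate 1 of 200 DD shares the replicate number of the 100 DD array, and its labelled age, 185 DD, is nearer to 130 DD. Replicate number and labelled age cannot be told apart here.

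The switches were mostly kept as the grain grew. Of the 1089 probe sets switched on, 914 (83.9%) were at least 4 on both arrays at 250 DD, 857 (78.7%) at 300 DD and 777 (71.3%) at 500 DD, and 713 (65.5%) at all 3 stages. Back under 4 on both arrays were 21 at 250 DD, 77 at 300 DD and 181 at 500 DD. Of the 1454 switched off, 1276 (87.8%) were under 4 on both arrays at 250 DD, 1259 (86.6%) at 300 DD and 1078 (74.1%) at 500 DD, and 958 (65.9%) at all 3 stages. At 500 DD, 184 of them were again at 4 or more on both arrays.

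**Figure D5:**
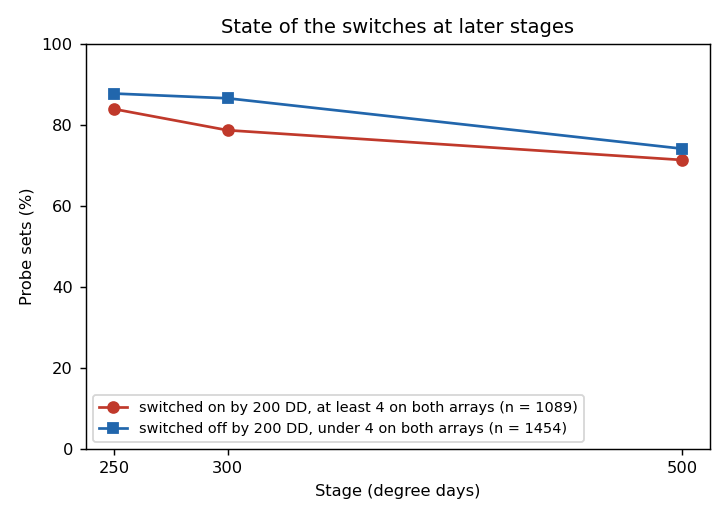
Share of probe sets (vertical axis, %) that kept their 200 DD state on both arrays of 250, 300 and 500 DD (horizontal axis, degree days), for the 1089 switched on and the 1454 switched off between 100 and 200 DD. The shares were 83.9% and 87.8% at 250 DD and 71.3% and 74.1% at 500 DD.

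By the methods, the grain samples held endosperm and embryo. The starchy endosperm markers were gluten, amylase inhibitor and thionin genes, which are products of filling, and most of their probe sets were under 4 at 100 DD. Their values do not tell how much endosperm the younger grain held. Of these 28 probe sets, 27 were at 4 or more on each 200 DD array and 8 on the 100 DD array, where 4.42% of all probe sets tested were switched on. All 18 histone probe sets were at 4 or more on every array. The array controls differed too. The poly(A) spike-in controls, added to the RNA before labelling, averaged 4.59 and 10.61 on the 200 DD arrays and 7.83 on the 100 DD array (36 probe sets), and the hybridization controls 9.33 and 10.67 at 200 DD and 9.49 at 100 DD (27 probe sets). The 3′ minus 5′ signal of sucrose synthase, which grows as RNA degrades, was 4.47 and 4.53 at 200 DD and 6.41 at 100 DD, and that of glucose-6-phosphate dehydrogenase was 2.34 and 2.56 at 200 DD and 2.83 at 100 DD. That of the cytochrome P450 control CYP86-TA was 6.54 and 5.94 at 200 DD and 6.44 at 100 DD, and that of ubiquitin was -1.96 and -1.97 at 200 DD and -2.09 at 100 DD. The 200 DD arrays thus lay below 100 DD for sucrose synthase and glucose-6-phosphate dehydrogenase, on both sides of it for CYP86-TA and for the spike-ins, and above it for ubiquitin. Their part in the changes was not tested.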

How the data were processed

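Grain of 5 stages was hybridized to the Affymetrix wheat array. Before deposit the authors ran GCRMA (version not given in the sources used) on the arrays, and the deposited table holds the resulting log2 values. Its 10 columns were all used, and 0 were left out. The tests did not include the 111 Affymetrix controls, and probe intensities were not used here.

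The array labelled 100 DD replicate 2 was left out, and stage means were fitted to the other 9 arrays with limma 3.58.1 in R 4.3.3 (statmod 1.5.0), with eBayes moderation and Benjamini-Hochberg adjustment over 24631 probe sets. The script was tested on simulated data with known changes. The members and lists were chosen with earlier results of these data known. The rule for named genes took, among probe sets with 1 gene symbol, the 10 genes called with the largest graded rise and the 10 with the largest graded fall, the 10 strongest switched on and the 10 strongest switched off, up to 6 genes of each list, and 4 unnamed probe sets. Other named genes and further probe sets were added after their values were seen. Names come from the array's annotation table and RefSeq, where 1272 of 1273 probe sets matched. Genes without a name are described singly only where an alternative turned their sign.

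Replicate number was taken as a marker of harvest, which could pair arrays across stages, but the main fit did not include it. It entered only the alternatives, as a fixed or a random replicate block. Between the 4 stages with 2 arrays, the replicate deviations from the stage mean had correlations of 0.252 to 0.704, each of the 6 over 0.1. Alternatives changed the filter, the limit, the normalization, the prior, the adjustment, the replicate block, the test and the arrays. The number of arrays limits the precision. Tables and figures were made with Python 3.11.15, pandas 2.3.3 and matplotlib 3.10.9.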

Additional observations from a re-analysis of the deposited data

How the results depend on the processing

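Of 1408 probe sets called higher and 2191 called lower, the filter of 4 on at least 2 of 9 arrays left 1218 lower (it removes those at 4 or more at 100 DD alone), Bonferroni adjustment 136 higher and 31 lower, and the 15956 probe sets other than shared ones (names ending in _a_at, _s_at or _x_at) gave 834 higher and 1551 lower, from a smaller table. A fit of the 3 arrays alone called 0 in either direction (limma, with 5219 at an unadjusted p under 0.05), as did the methods' t-test with a variance per gene under both adjustments (2851 at an unadjusted p under 0.05). The methods' t-test with a variance common to all genes called 673 higher and 324 lower after Bonferroni adjustment, and 1533 and 1708 after Benjamini-Hochberg. With the array labelled 100 DD replicate 2 included, 57 were higher and 14 lower. Leaving out 1 array gave 865 to 1488 higher and 1063 to 2011 lower, with the lowest counts without 200 DD replicate 2. It gave 1413 (without 200 DD replicate 2) and 1845 (without replicate 1) switched on and 1867 and 2184 switched off, where 1 array then has to cross the limit. With the replicate number as a fixed replicate block 1691 were higher and 2233 lower, and as a random replicate block 1692 and 2639. Of the named genes' calls the fixed block ended those of CAT1 (adjusted p = 0.0632) and TPC1 (adjusted p = 0.0564).

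The rule for named genes, loci without a name included, gave 53 probe sets that were called. All 53 lost the call with 3 arrays alone and with the t-test per gene. With all 10 arrays 48 lost it, 4 more lost it with a change of sign and 1 held it. Bonferroni adjustment ended the call of 31, and the common variance with Bonferroni that of 10. Under further alternatives 10 lost the call, 4 with a name (PEAMT1, lgul, CAT1 and TPC1). With all 10 arrays the difference changed sign for LOC100049017 (0.63), LOC542774 (0.093), LOC542773 (0.46), XTH (0.73), tubb3 (0.36), Prx1 (0.79), lgul (0.62), Trx-M (1.16), Pgk-1 (1.15), GAPN (0.36), wcH2B-8 (1.12), H2A-2 (0.95), H2A-9 (2.05), H2A-3 (0.24), wcH2B-6 (1.68), OEE2 (1.06), OEE1 (1.56), BMY1 (2.18), FBP (0.71) and ha1 (0.10), and for hsp16.9A (-1.93), 1-FEH (-0.33), WZF1 (-1.03) and RPS29 (-0.17). Between leaving out 200 DD replicate 2 and replicate 1 it ran from -0.71 to 0.031 for Trx-M, -2.12 to 3.13 for WZF1, -0.66 to 1.17 for RPS29 and -0.25 to 0.065 for ha1, and it changed sign with the fixed block for WZF1 (-0.63). The setting with all 10 arrays adds only the array labelled 100 DD replicate 2, which enters the 100 DD mean. Its r with 500 DD replicate 2 was 0.988. On it H2A-9 had 5.42, where 100 DD replicate 1 had 12.21. The changes of sign with all 10 arrays come from including that array. The cause of the other changes of sign was not tested.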

Other observations

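The array labelled 100 DD replicate 2 was compared with no group. Of the 1089 probe sets switched on between 100 and 200 DD it held 850 (78.1%) at 4 or more, and of the 1454 switched off it held 308 (21.2%) at 4 or more. On it gli-2 (LOC543210) stood at 14.80, AGP-S at 13.39, Em (LOC543480) at 13.99 and BMY1 at 4.21, where 100 DD replicate 1 had 2.20, 10.78, 2.16 and 13.73.

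At 200 DD itself, 627 of the 24631 probe sets (2.55%) differed by at least 2 between the arrays and 47 by at least 4. XIP-I and WZF1 were among these 47.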
